A study of Homo sapiens with 8 samples.

Results

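The protein 4.1 genes encode adaptor proteins of the membrane skeleton, the actin and spectrin mesh beneath the plasma membrane. The family was taken by name as 7 genes, EPB41, EPB41L1, EPB41L2, EPB41L3, EPB41L4A, EPB41L4B and EPB41L5. They were read as the features annotated to 1 of these genes alone, which gave 7 of 22011 gene-level transcript clusters and 241 of 287329 exon-level probesets. Of the other clusters, 1 that EPB41 shares with another gene and 1 that EPB41L4A shares with other genes were not used. The members were chosen by name with their intensity differences between knockdown and control on these same arrays already known. All values of that contrast are therefore given for the family as a description, with no p-value printed for a member. Calls (adjusted p under 0.05 in the fit across all features) and counts of unadjusted p under 0.05 support nothing beyond themselves. The share of all features under that unadjusted limit is not given, so nothing is read from those counts.

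RNA came from MDA-MB-231, a cell line from a human breast cancer without hormone receptors, and was hybridised to exon arrays (Affymetrix Human Exon 1.0 ST), whose probesets read single exons or parts of them. In the knockdown group, cells stably expressed an shRNA against the integrin α3 subunit after lentiviral transduction (2 arrays). In the control group they stably expressed a control shRNA, delivered in the same manner (2 arrays). Both groups grew on tissue culture plastic in DMEM with serum and antibiotics. The labels name 1 kind of α3-targeting shRNA and no rescue of α3, and do not say whether the cells were pools or clones, so loss of α3 and other differences between the transduced populations cannot be told apart. The same 4 arrays were summarised by gene and by exon, which makes the 8 samples of the series, and the small number of arrays limits the precision of every value.

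Members of the family share a FERM domain, a fold that binds the cytoplasmic tails of membrane proteins. The founding member, encoded by EPB41, is known from red blood cells, where it ties spectrin and actin to glycophorin C and the scaffold protein MPP1. The EPB41L1, EPB41L2 and EPB41L3 products are its close relatives in neurons and other tissues, and the EPB41L3 product, also called DAL-1, binds the adhesion molecule CADM1 and has been described as lost in several tumour types. The EPB41L5 product belongs to a more distant branch and is known from the mouse embryo for a role in epithelial-mesenchymal transition and from work on the Crumbs polarity complex.

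Sequence upstream of the start sites is shown for the pair of members with a gene-level call, EPB41L3 and EPB41L5. For EPB41L3 the RefSeq promoter table lists 4 start sites, and no value here ties a probeset to any of them. Each window covers 300 bases, 250 before and 50 after the annotated start, in build GRCh38.p14, printed 5′ to 3′ on the gene's strand. Capitals mark each CG dinucleotide. The windows are the most and the least CG-rich of the 4 EPB41L3 starts (chr18:5543948-5544247 and chr18:5521330-5521629, minus strand) and the single EPB41L5 start (chr2:120012827-120013126, plus strand).
EPB41L3, CG-rich start: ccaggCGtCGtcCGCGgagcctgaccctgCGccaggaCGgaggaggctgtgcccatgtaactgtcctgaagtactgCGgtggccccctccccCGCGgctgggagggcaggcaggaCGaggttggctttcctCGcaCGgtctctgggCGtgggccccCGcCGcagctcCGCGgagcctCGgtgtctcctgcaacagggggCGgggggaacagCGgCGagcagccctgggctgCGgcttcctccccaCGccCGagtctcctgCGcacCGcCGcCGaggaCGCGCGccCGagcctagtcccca
EPB41L3, CG-poor start: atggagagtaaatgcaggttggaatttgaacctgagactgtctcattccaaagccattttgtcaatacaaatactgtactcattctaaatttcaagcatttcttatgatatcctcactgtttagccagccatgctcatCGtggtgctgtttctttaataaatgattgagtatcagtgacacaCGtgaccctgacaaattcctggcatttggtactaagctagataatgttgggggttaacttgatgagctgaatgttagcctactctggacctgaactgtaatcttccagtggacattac
EPB41L5: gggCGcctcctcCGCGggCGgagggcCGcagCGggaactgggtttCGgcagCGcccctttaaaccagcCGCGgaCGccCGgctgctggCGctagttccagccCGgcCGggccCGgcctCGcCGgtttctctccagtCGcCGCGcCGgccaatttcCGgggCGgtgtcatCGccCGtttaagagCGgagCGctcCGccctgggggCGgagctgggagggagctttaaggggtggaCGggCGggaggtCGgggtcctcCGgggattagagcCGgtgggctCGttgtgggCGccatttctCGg

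The CG-rich EPB41L3 window holds 32 CG dinucleotides, a number that 18.9% of the 35114 RefSeq windows of the same length reach or exceed. The CG-poor window holds 2, reached by 89.0% of windows, and the other EPB41L3 starts hold 30 and 4. The EPB41L5 window holds 38, reached by 9.9% of windows, and the median window holds 14. The letters TATAAA, searched on both strands, occur in none of the EPB41L3 and EPB41L5 windows. They occur in 1 of the 15 windows of the 6 members that the table lists, an EPB41L2 window, and in 11.5% of all windows. These counts describe the reference sequence. The arrays did not measure promoters.

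Values are PLIER intensities, the summary computed by the authors, on a linear scale. ITGA3, which encodes integrin α3, had intensities of 619 and 644 in the knockdown arrays and 3480 and 3529 in the controls (log2 difference -2.44 ± 0.0727 (SE), adjusted p = 8.70e-05, limma). Median gene-level intensity was 168 to 171 in the knockdown arrays and 177 to 186 in the controls, and arrays correlated across clusters at r = 0.979 to 0.982 between groups and 0.990 to 0.991 within a group. Of 13206 clusters bright enough to test, 793 were called higher and 2033 lower in knockdown. This split moved to 1351 and 1700 after quantile normalization and to 1494 and 1529 with arrays centred on their medians. The total of 2826 calls dropped to 1114 without knockdown replicate 1 and to 832 without knockdown replicate 2. At the exon level 8022 of 172397 tested probesets were called, against 3493 without knockdown replicate 2, 3028 without control replicate 1 and 4236 without control replicate 2. Of 8 markers of mesenchymal-like breast cancer lines, SPARC was too dim to test, AXL and FN1 were called lower and the other 5, vimentin (VIM) among them, were not called. Their summed intensity was 19473 and 19133 in the knockdown arrays and 23178 and 23703 in the controls. Of 11 luminal epithelial markers, the hormone receptor genes ESR1 and PGR and the E-cadherin gene CDH1 were too dim to test, KRT18 was called higher, and ERBB2 and KRT19 were called lower. Their summed intensity was 13924 and 12968 in the knockdown arrays and 13735 and 13958 in the controls, with CDH1 at 177 and 168 in the knockdown arrays and 25.4 and 28.8 in the controls. Among markers of tissues rich in these proteins, erythroid and neural, 6 of 7 with a cluster of their own were too dim to test. Their summed intensity was 365 and 371 in the knockdown arrays and 417 and 365 in the controls. Summed leukocyte markers (4 of 5 with a cluster) measured 381 and 458 in the knockdown arrays and 393 and 372 in the controls. Summed fibroblast markers (5 of 6) measured 572 and 552 in the knockdown arrays and 353 and 355 in the controls, with PDGFRB the 1 member called higher. PLIER levels of different clusters are not on a common scale, so each sum follows its brightest members and is no level of a cell type. Within the luminal sum KRT18 averaged 5648 in knockdown and 4520 in control cells, and KRT19 averaged 2349.5 and 4008. The part of any of these markers in the results below was not tested.

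EPB41L3 was the only tested member called lower at the gene level, and its knockdown values lay near the lower end of the array's range. Its gene-level cluster (3797032) measured 5.48 and 7.85 in the knockdown arrays, against 399 and 511 in the controls. Means were 6.67 ± 1.67 in knockdown and 455 ± 79.3 in control cells (SD, n = 2 arrays each). Both knockdown arrays lay far below both controls. In RNA from whole cultures, fewer cells that express the gene and less of its RNA per cell cannot be told apart. On the knockdown arrays 2.72% and 3.42% of all clusters were dimmer, against 67.0% and 70.7% on the controls. PLIER levels of different clusters are not on a common scale, so these shares only say how dim the feature was.

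The log2 difference, knockdown minus control, was -4.37 ± 0.166 (SE), the second lowest among the 13206 clusters tested. It was computed after adding an offset of 16 to each intensity, which exceeds both knockdown values, so the size depends on that offset. Nothing is read from the rank, because the contrast was known when the family was chosen. With an offset of 1 the difference was -5.90, with 64 it was -2.87, and the call held at either. The cluster was kept for testing because its mean intensity over all 4 arrays (231) exceeded the limit of 108, which it did through the controls alone. Ranked by the mean of log2 values instead, it lay below the limit (6.69 against 6.94) and was not tested. With no filter at all it was called lower again.

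EPB41L5 was the only tested member called higher at the gene level. Its cluster (2503109) measured 415 and 419.8 in the knockdown arrays and 244 and 258 in the controls. Means were 417 ± 3.44 in knockdown and 251 ± 9.66 in control cells (SD, n = 2 each). The groups did not overlap, and the gap between them was many times the distance between replicates. The log2 difference was 0.70 ± 0.0901 (SE), past the threshold with each 1 of the 4 arrays left out, but not when the gene was summarised as the median of its tested probesets (0.63 ± 0.154).

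The 4 other members bright enough to test were not called. EPB41, the red cell protein's gene, measured 123 and 143 in the knockdown arrays and 107 and 110.0 in the controls (log2 difference 0.25 ± 0.129 (SE)). EPB41L1, the neuronal form, measured 319.8 and 346 in the knockdown arrays and 272 and 316 in the controls (0.17 ± 0.110). In both genes the knockdown arrays lay above the controls, but the gap between the groups was smaller than the distance between the knockdown replicates. EPB41L2, the widely expressed form, measured 624 and 694 in the knockdown arrays and 544 and 622 in the controls (0.17 ± 0.103), so the lower knockdown array and the higher control nearly met. EPB41L4B measured 327 and 331 in the knockdown arrays and 269.6 and 308 in the controls (0.18 ± 0.103). Over the alternative settings the difference ran from 0.15 to 0.35 for EPB41 and from 0.068 to 0.28 for EPB41L1. It ran from 0.080 to 0.27 for EPB41L2 and from 0.092 to 0.29 for EPB41L4B. Quantile normalization and centring enlarged it in all 4, and no setting gave a call.

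EPB41L4A was too dim to test at the gene level. It measured 31.8 and 28.8 in the knockdown arrays and 50.5 and 42.8 in the controls. Its groups did not overlap, but the mean over all arrays, 38.5, was under the limit of 108. Thus 6 of the 7 members were tested, 1 was called higher and 1 lower. Across all clusters tested 6% were called higher and 15.4% lower, and the groups did not overlap in 61.9% (knockdown above in 22.2%, below in 39.7%). Since these values were known when the family was put forward, nothing is read from its counts.

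**Figure D1:**
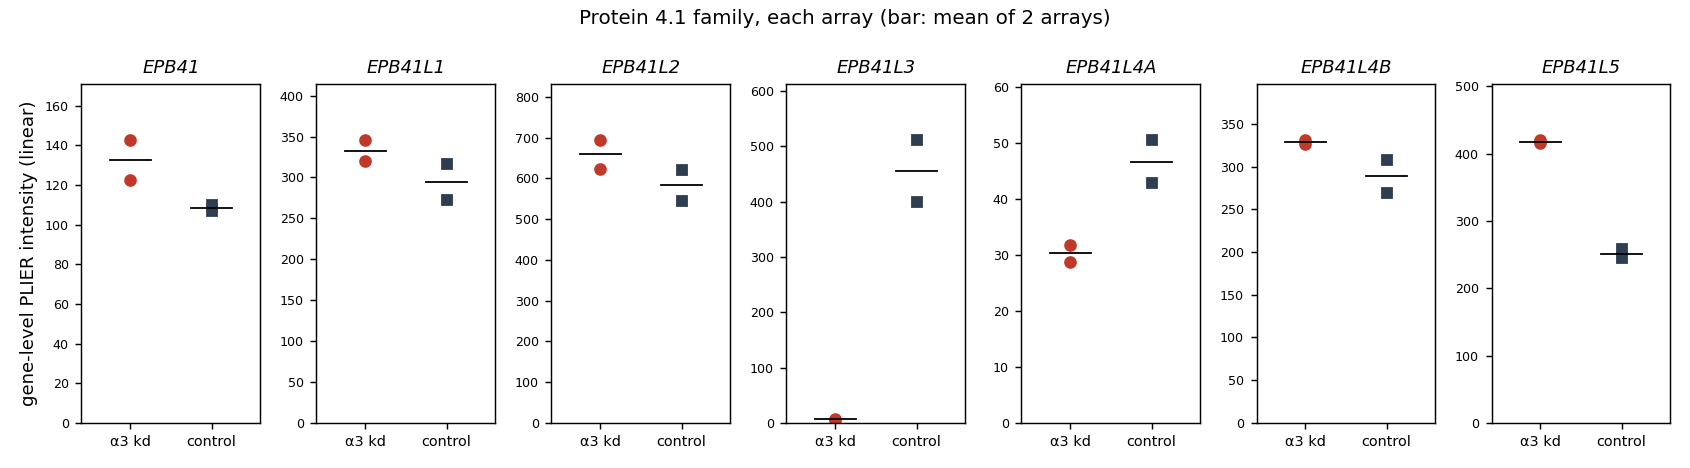
Gene-level PLIER intensity (linear scale, each panel from 0 on its own axis) of the 7 members on each array, with the 2 α3 knockdown arrays as circles, the 2 control arrays as squares and a bar at each group's mean. EPB41L3 sits at 5.48 and 7.85 in knockdown against 399 and 511 in control, EPB41L5 at 415 and 419.8 against 244 and 258, and the remaining panels show smaller gaps.

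Probeset by probeset, most but not all of EPB41L3 was dimmer in knockdown. The array reads the gene with 42 probesets, and both knockdown arrays lay below both controls in 32 of them, where 27.5% of all probesets did. Of the 42, 30 were bright enough to test. Of these, 22 were called lower, 0 higher and 8 were not called, and 24 had an unadjusted p under 0.05. In 20 of the 22 both knockdown arrays were under the filter limit of 99.4, so those probesets were tested through the controls alone and nothing is read from the count. In all tested probesets of the series 4.65% were called, 3.33% lower, and the groups did not overlap in 50.8%. Over the 22 probesets intensities ran from 0.00431 to 495 in the knockdown arrays (median 9.76) and from 161 to 1829 in the controls (median 587). Among the 12 untested probesets both knockdown arrays lay below both controls in 8 and the groups overlapped in 4.

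The lowest value among the log2 differences belonged to probeset 3797050, at 0.00431 and 4.60 in the knockdown arrays and 1014 and 1255 in the controls (-5.98 ± 0.281 (SE)). Probeset 3797092 measured 0.0118 and 2.24 in the knockdown arrays and 825 and 951 in the controls (-5.72 ± 0.282). Probeset 3797051 measured 0.0169 and 0.0307 in the knockdown arrays and 581 and 760.5 in the controls (-5.41 ± 0.308). On these probesets the knockdown signal was at or near 0 while both controls were well above the filter limit of 99.4. In 12 of the 22 probesets called lower, both knockdown arrays were under the offset of 16, so the sizes of those differences follow the control level and give no order among the probesets.

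Some of the called probesets kept signal in knockdown cells. Probeset 3797055 measured 47.4 and 139.7 in the knockdown arrays and 526 and 601 in the controls (-2.54 ± 0.375). Probeset 3797056 measured 495 and 469 in the knockdown arrays and 822 and 824 in the controls (-0.75 ± 0.156). That is a partial drop with no overlap between groups. Its call depended on each of the 4 arrays, on the filter and on the intensity trend.

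A further set of EPB41L3 probesets was bright in both groups and not called. Probeset 3797107 measured 2041 and 2240.0 in the knockdown arrays and 2152 and 2284 in the controls (-0.052 ± 0.122). Probeset 3797118 measured 539 and 709 in the knockdown arrays and 518 and 436 in the controls (0.37 ± 0.193), and probeset 3797073 measured 571 and 667 in the knockdown arrays and 436 and 416 in the controls (0.52 ± 0.172). For 3797107 the groups overlapped, and for the other two both knockdown arrays lay above both controls. Probeset 3797074 measured 489.5 and 556 in the knockdown arrays and 816 and 798 in the controls (-0.61 ± 0.159), and probeset 3797108 measured 325 and 239 in the knockdown arrays and 246 and 245 in the controls (0.17 ± 0.223). For 3797074 both knockdown arrays lay below both controls, and for 3797108 the groups overlapped.

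In the order of the probeset numbers the last called probeset was at position 35. The probesets were split there after the calls were seen. That choice alone puts all 22 calls among the first 35 and 0 in the last 7. Of the first 35, 25 were tested, and both knockdown arrays lay below both controls in 31. Positions 16 to 23 within them also held no called probeset. Of the last 7, from 3797106 to 3797118, 5 were tested and 0 were called by limma, 0 of these 5 with an unadjusted p under 0.05. This pattern was seen in the data and carries no test. No exon or genome position is given for the probesets, because the files name no genome build, and whether the signal that stays comes from EPB41L3 RNA was not tested.

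**Figure D2:**
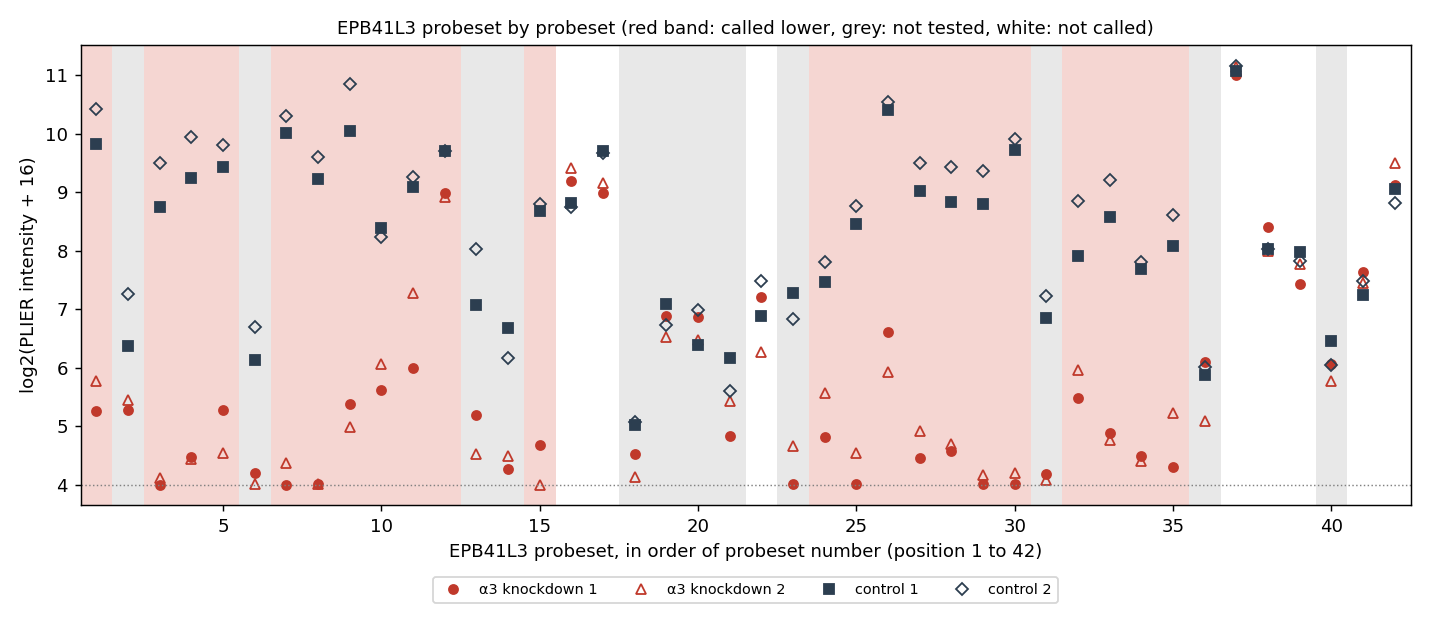
Each of the 42 EPB41L3 probesets in the order of its number (x axis) with its log2(PLIER intensity + 16) on the 4 arrays (y axis), α3 knockdown in red and control in dark blue. The dotted line at 4 is an intensity of 0. Red bands mark the 22 probesets called lower, where knockdown points reach the dotted line in places, grey bands the 12 not tested, and white the 8 not called, 5 of them among the last 7.

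Each EPB41L3 probeset was also set against the mean of the gene's other tested probesets. By that measure 15 of the 30 were called, 8 higher and 7 lower relative to the rest of the gene, and 25 had an unadjusted p under 0.05. Of the 8 higher, 7 were probesets with no call of their own, and the other one was 3797056. In 6 of the 7 lower, both knockdown arrays were under the offset of 16, so those calls follow control brightness and the offset. The mean that each probeset was set against includes such probesets too, so the relative calls are given as counts only and no order or size is read from them. Over the series 91 of 155406 probesets tested this way were called, which is 0.0586%. The count for EPB41L3 was 9 without control replicate 2 and 22 by limma's diffSplice. Without the filter on dim probesets it was 0 by limma, with 33 at an unadjusted p under 0.05.

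The number of EPB41L3 probesets called lower also depended on which probesets entered the adjustment. Without a filter 6 of the 42 were called, among 163 of 287329 in the series, and 31 had an unadjusted p under 0.05. With a filter on the mean of log2 values, which leaves 22 of them tested, 14 were called. With the lower 60% left out 14 were called. With each 1 of the 4 arrays left out the number was 20 to 21.

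A minority of the tested EPB41L5 probesets passed the threshold, each of them higher in knockdown. Of 33 probesets 28 were tested, 6 were called higher and 0 lower, where 1.33% of all tested probesets were called higher. A further count, 24 at an unadjusted p under 0.05, has no share of all probesets beside it and is not read. Both knockdown arrays lay above both controls in 28 of the 33, overlapped with them in 5 and lay below in 0. In all tested probesets of the series the groups did not overlap in 50.8%. The share of all probesets with knockdown above is not given, so nothing is read from the 28. Probeset 2503132, with the smallest p, measured 1385 and 1439 in the knockdown arrays and 706 and 661 in the controls (log2 difference 1.03 ± 0.141 (SE)). Probeset 2503133 had the highest difference, with 289 and 315 in the knockdown arrays and 45.7 and 115 in the controls (1.82 ± 0.354). The median over tested probesets was 0.68, against 0.70 at the gene level. The count of 6 dropped to 3 without knockdown replicate 1, to 1 without knockdown replicate 2 or control replicate 1, to 1 without the intensity trend and to 0 without the filter. It was 7 after quantile normalization or centring and 19 with the replicate numbers as a block.

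The other 5 members had 0 called probesets by limma. With the replicate numbers as a block EPB41 had 2, EPB41L4A 1 and EPB41L4B 2. EPB41 had 15 tested, with log2 differences from -0.14 to 0.86 and 2 at an unadjusted p under 0.05. EPB41L1 had 30 tested, from -0.64 to 0.59, with 1 at an unadjusted p under 0.05. EPB41L2 had 29 tested, from -0.10 to 0.63, with 3 at an unadjusted p under 0.05. These ranges spread to both sides of 0, and the medians of the 3 genes were 0.28, 0.18 and 0.17. EPB41L4B had 23 tested, from -0.18 to 1.04 with a median of 0.22, and 1 at an unadjusted p under 0.05. EPB41L4A, a dim gene, had 2 of 28 tested and 1 at an unadjusted p under 0.05, probeset 2871075 at 41.5 and 86.2 in the knockdown arrays and 194 and 141 in the controls (-1.24 ± 0.356). Both knockdown arrays lay below both controls in 13 of its 28 probesets, where 27.5% of all probesets did.

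**Figure D3:**
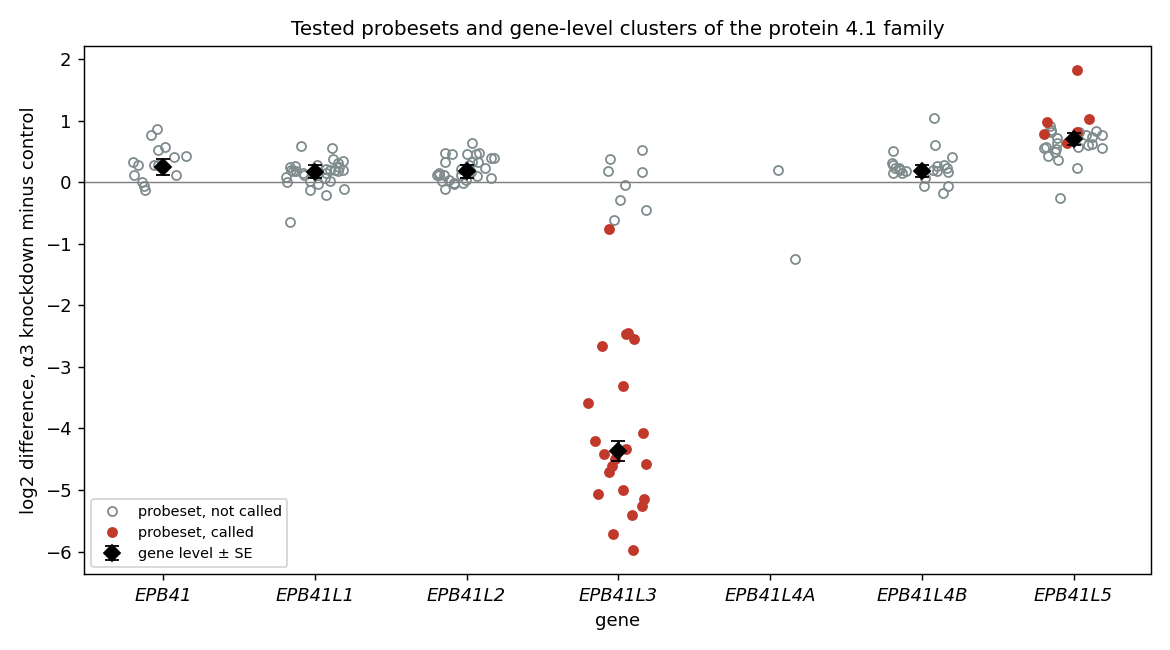
Log2 difference, α3 knockdown minus control, of every tested probeset (circles, filled where called) and of the gene-level cluster with its SE (diamonds) for each member. EPB41L3 spreads from -5.98 to 0.52, EPB41L5 lies mostly above 0 with a median of 0.68, and EPB41L4A has only 2 tested probesets and no diamond.

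The genes whose values over the 4 arrays lay nearest to those of EPB41L3 were RAB38, CCL2 and NCKAP1L. Nearness was measured as the Euclidean distance between log2 values, each centred on the gene's mean, and came to 0.47, 0.60 and 0.85 log2 units. RAB38, a small GTPase gene of vesicle traffic, measured 46.3 and 55.9 in the knockdown arrays and 985 and 1044 in the controls. CCL2, a chemokine gene, measured 23.8 and 35.7 in the knockdown arrays and 586 and 653 in the controls. NCKAP1L, which encodes a subunit of an actin-regulating complex known from blood cells, measured 7.90 and 3.22 in the knockdown arrays and 223 and 264 in the controls. Like EPB41L3, these genes were low on both knockdown arrays, their groups did not overlap, and they passed the filter through the controls alone. Over 4 arrays in 2 groups, nearness requires a drop of like size.

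The 4 lists of partner and FERM-domain genes were also drawn up with earlier results of these data known. Their calls and p-values are therefore a description and no independent support. Among known partners of these proteins, the membrane partners and scaffolds were called in 2 of 10 tested genes, both lower. Their median log2 difference was 0.0031, against -0.056 for all clusters tested, 21.4% of which were called. CADM1, the adhesion molecule that binds the EPB41L3 product, measured 184 and 211 in the knockdown arrays and 891 and 874 in the controls. Its knockdown values lay well below the controls (log2 difference -2.08 ± 0.0982 (SE), adjusted p = 0.000249, limma). MPP1, the scaffold that binds the EPB41 product and glycophorin C, measured 103 and 126 in the knockdown arrays and 301 and 337 in the controls (-1.36 ± 0.131, adjusted p = 0.00265, limma). Both calls held in the alternative settings that tested them. CADM4, a relative of CADM1, measured 229 and 244 in the knockdown arrays and 163 and 186 in the controls (0.41 ± 0.114), and MPP2, a relative of MPP1, measured 159 and 169 in the knockdown arrays and 120 and 122 in the controls (0.39 ± 0.113). Neither passed (adjusted p = 0.0510 and 0.0559, limma), but both did after quantile normalization (0.0162 and 0.0276). Over all alternatives the adjusted p ran from 0.0162 to 0.277 for CADM4 and from 0.0276 to 0.301 for MPP2. Of the 19 genes listed, 5 were too dim and 4 had no cluster of their own.

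Of 11 tested genes of the spectrin-actin skeleton 1 rose and 1 fell (18.2% called, against 21.4% of all clusters tested), with a median of 0.030. The adducins, which cap actin filaments and recruit spectrin, moved in both directions. ADD3 measured 315 and 324 in the knockdown arrays and 616 and 736 in the controls (-1.04 ± 0.109, adjusted p = 0.00329, limma). ADD1 measured 787 and 934 in the knockdown arrays and 661 and 633 in the controls (0.40 ± 0.103, adjusted p = 0.0411, limma). Leaving out whichever array ended the ADD1 call (adjusted p = 0.0539 to 0.266), as did dropping the filter (0.0845) or the trend (0.0574). The tropomodulin gene TMOD3, whose product caps the other end of actin filaments, measured 2639 and 2892 in the knockdown arrays and 2047 and 2402 in the controls. The spectrin gene SPTAN1 measured 1696 and 1632 in the knockdown arrays and 1892 and 2169 in the controls. Neither passed (adjusted p = 0.0785 and 0.0759, limma). Over all alternatives the adjusted p ran from 0.0210 to 0.324 for TMOD3, which passed in 4 of them, quantile normalization included (0.0364). It ran from 0.0384 to 0.299 for SPTAN1, which passed without control replicate 1 (0.0384) and with the replicate block (0.0495).

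Of 7 tested cytosolic partners of the EPB41L3 product, 1 was called (14.3%, against 21.4% of all clusters tested), with a list median of -0.022. SFN, which encodes stratifin, measured 1204 and 1172 in the knockdown arrays and 1598 and 1522 in the controls (-0.39 ± 0.0745, adjusted p = 0.0170, limma). That call was lost without knockdown replicate 1 (0.0803) or 2 (0.118). PRMT3, an arginine methyltransferase, measured 533 and 543 in the knockdown arrays and 466 and 539 in the controls. YWHAH measured 1504 and 1523 in the knockdown arrays and 1439 and 1795 in the controls, and YWHAZ 2755 and 3935 in the knockdown arrays and 2641 and 3715 in the controls. For these 3 genes the groups overlapped, and the sign of the difference turned in some settings.

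Of 15 tested genes that encode other FERM-domain proteins, 3 rose and 2 fell (33.3% called), with a median of 0.013, where 6% of all clusters tested were called higher and 15.4% lower. FRMD3, a further relative of the protein 4.1 genes, measured 246 and 229 in the knockdown arrays and 95.4 and 101 in the controls (1.15 ± 0.113, adjusted p = 0.00277, limma). Both controls were under the filter limit of 108, so FRMD3 was tested through the knockdown arrays alone. EZR, which encodes the membrane-actin linker ezrin, measured 3055 and 3189 in the knockdown arrays and 2438 and 2344 in the controls (0.38 ± 0.0746, adjusted p = 0.0178, limma). Kindlin genes, whose products bind integrin β tails, moved in both directions, FERMT2 at 1721 and 1585 in the knockdown arrays and 1274 and 1372 in the controls (0.32 ± 0.0838, adjusted p = 0.0431, limma) and FERMT1 at 165 and 184 in the knockdown arrays and 398 and 475 in the controls (-1.25 ± 0.122, adjusted p = 0.00277, limma). The other gene called lower, PTPN21, a phosphatase gene outside the rule for named genes and named after its values were seen, measured 221 and 240.0 in the knockdown arrays and 315 and 293 in the controls (adjusted p = 0.0454, limma). The FERMT2 and PTPN21 calls each needed all 4 arrays (adjusted p with 1 left out = 0.0524 to 0.237 and 0.0634 to 0.257) and the filter (0.0800 and 0.0765 without it). That of PTPN21 was also lost after quantile normalization (0.104) and centring (0.0873), that of FERMT2 without the trend (0.0679), and that of EZR without knockdown replicate 1 (0.0692), knockdown replicate 2 (0.119) or control replicate 2 (0.0514). Over the 4 lists the 10 calls dropped to 5 without knockdown replicate 1 and to 5 without knockdown replicate 2, and rose to 17 with the replicate numbers as a block.

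**Figure D4:**
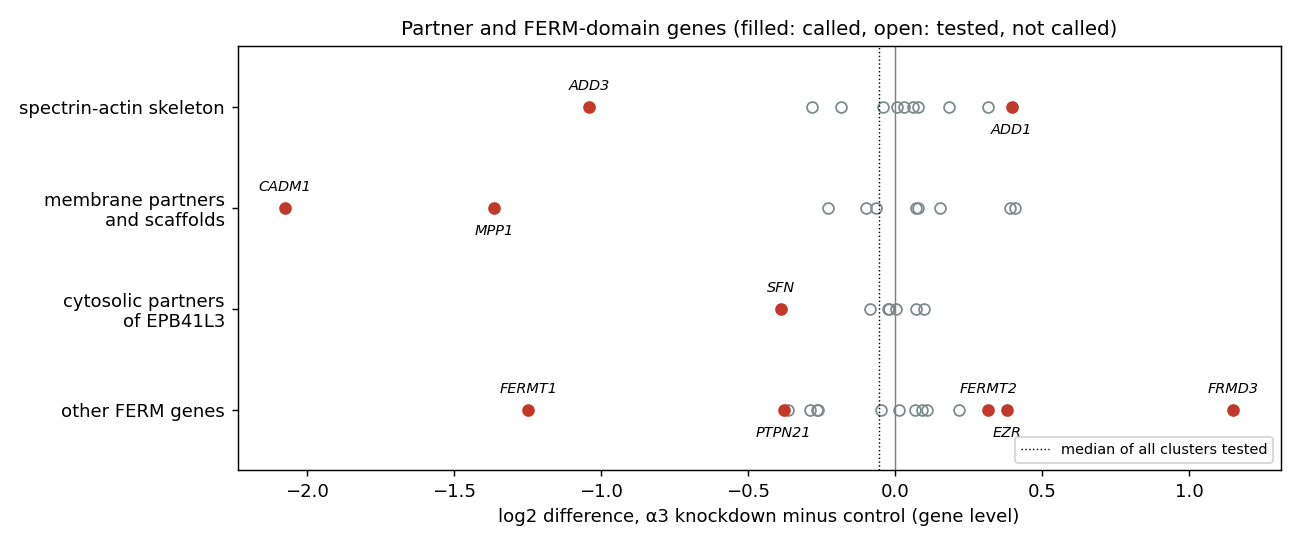
Gene-level log2 difference, α3 knockdown minus control (x axis), of the tested genes in the 4 partner and FERM-domain lists (rows), filled and named where called. CADM1 at -2.08 and MPP1 at -1.36 lie lowest, FRMD3 at 1.15 highest, and the dotted line marks the median of all clusters tested, -0.056.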

How the data were processed

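Per the labels, the authors made the intensities with PLIER in Affymetrix Expression Console, once over core genes and once over core exons, and the values are linear. The series description adds processing in the Exon Array Computational Tool. No version, background step or scaling across arrays is given in the sources used here. Features were named through the platform annotation, updated through RefSeq gene names (assembly GRCh38.p14, names only). Exactly 1 symbol was found for 14432 transcript clusters, several for 2408 and none for 5171 (261273, 9155 and 16901 probesets). A gene with several clusters is represented by its brightest.

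Here, log2(intensity + 16) was compared between groups with limma 3.58.1 (lmFit and trended eBayes, no covariate, 2 residual degrees of freedom, two-sided, Benjamini-Hochberg adjustment over all features tested, threshold 0.05) in R 4.3.3. Features in the lower 40% by mean intensity over all 4 arrays (under 108 for clusters, 99.4 for probesets) were not tested. Probesets were also tested as differences from the mean of the other tested probesets of their gene, in genes with at least 3. Steps were tested on simulated data, and plots drawn with matplotlib 3.10.9.

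The members, the 4 partner lists and the rule for named genes were chosen with earlier results of these data known. The text names ITGA3, all members, up to 4 genes per list by smallest p, the 3 genes nearest to EPB41L3 and, of the EPB41L3 probesets, some of each kind of change, picked after their values were seen (the rule allowed all of them). Alternatives were other offsets, filters, variance models and scalings, a replicate block, each array left out, probeset medians and diffSplice.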

Additional observations from a re-analysis of the deposited data

How the results depend on the processing

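The direction of all 6 tested members held in every setting that tested them. The 2 member calls became 1 with the lower 60% left out or with a filter on the mean of log2 values (chosen after seeing the data), because EPB41L3 was then not tested, and 1 on probeset medians, where EPB41L5 missed the threshold; the cause of that loss was not tested. EPB41L3 probesets called numbered 14 under either of those filters and 6 without a filter, where its relative calls numbered 0. All exon-level calls numbered 163 without a filter, 1903 without the trend and 29131 with the replicate block, which also gave 17 calls in the 4 lists. With each array left out in turn, gene-level calls ranged from 832 to 2417, exon-level calls from 3028 to 5385, list calls from 5 to 9, EPB41L3 probesets called from 20 to 21, its relative calls from 9 to 20, and member calls stayed at 2. The lone array of a group is then assumed to vary like the other group. Same-numbered arrays deviated together (r = 0.293 across clusters), but 2 pairs and the labels do not settle a pairing, and the block changed no member call at the gene level. At the exon level it gave 19 calls in EPB41L5, 2 in EPB41, 1 in EPB41L4A and 2 in EPB41L4B. EPB41L3 probesets 3797073 and 3797074 gained calls.

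The sign turned for genes and probesets that were not called. For EPB41L3 probeset 3797107 the log2 difference was 0.023 after centring and ran from -0.12 to 0.015 (0.015 without knockdown replicate 1) with arrays left out in turn. For 3797108 it ran from -0.034 to 0.38 (-0.034 without knockdown replicate 1) and for 3797079 from -0.92 to 0.020 (0.020 without knockdown replicate 2). For YWHAH it was 0.0055 after centring and ran from -0.24 to 0.072 (0.072 without control replicate 2), for YWHAZ from -0.18 to 0.33 (-0.18 without knockdown replicate 2, -0.17 without control replicate 1), and for PRMT3 from -0.0034 (without control replicate 1) to 0.20. Of 815 single values recomputed over 60 genes and probesets, 736 kept direction and call, 49 lost the call, 21 gained one and 9 turned. No depth is known for arrays. Values near 0 carry no order.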
